A study of Mus musculus with 4 samples.

Results

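The core circadian clock genes were measured as RNA counts in the quadriceps, the large thigh muscle, of 7-week-old mice. The set holds 10 genes chosen by name: the activators Arntl, Clock and Npas2, the repressors Per1, Per2, Per3, Cry1 and Cry2, and the nuclear receptors Nr1d1 and Nr1d2. All 10 matched a gene ID among the 55573 in the deposited tables, and all 10 were among the 13076 genes that passed a filter on low counts. The vdr-/- group held 2 libraries of B6.129S4-Vdrtm1Mbd/J mice, in which the vitamin D receptor gene Vdr is disrupted in every tissue. The WT group held 2 libraries from C57BL/6J mice. All mice were weaned at 21 days and fed chow and water freely, and the muscles were flash frozen. The labels name no time of day for dissection and do not state whether the libraries came from separate animals, so p-values reflect the spread of these libraries alone, and that spread may be technical.

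The clock is a loop of transcription and repression that runs in nearly every cell. ARNTL, also called BMAL1, pairs with CLOCK or its relative NPAS2, and the pair binds E-box sequences and switches on the Per, Cry and Nr1d genes. PER and CRY proteins then block the pair, while the NR1D receptors, also called REV-ERBs, repress Arntl at sites that the ROR activators also use, so that Arntl and the Nr1d genes peak at opposite times of day. In skeletal muscle the clock is known to time genes of glucose and lipid use. Because these transcripts cycle through the day, the hour of collection sets much of their level. That hour is not known here, so genotype and time of dissection cannot be told apart.

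Assigned reads came to 21.34 M and 11.21 M in the vdr-/- libraries and 10.79 M and 13.03 M in the WT libraries. Values are CPM, counts scaled to library size by the trimmed mean of M values, and log2 fold changes are vdr-/- over WT ± SE. A gene was called where the Benjamini-Hochberg adjusted p of edgeR's quasi-likelihood test over all 13076 genes was below 0.05, which held for 265 genes (2.03%), 211 higher (1.61%) and 54 lower (0.413%) in vdr-/-. Vdr itself had 5 and 1 counts in vdr-/- and 5 and 0 counts in WT, too few to show a difference, and the allele removes only a part of the gene, so Vdr checks no label. Xist, the RNA that silences an X chromosome in female cells, stood at 0 and 0.256 CPM in vdr-/- and at 183 and 217 CPM in WT, and the Y-linked Ddx3y at 75.8 and 63.0 CPM in vdr-/- and 4.74 and 0 CPM in WT. The groups were thus of opposite sex by these genes, with some Y-linked reads in WT replicate 1, and genotype and sex cannot be told apart. The quadriceps label matched fast muscle, with the myosin gene Myh4 at 22000 and 22000 CPM in vdr-/- and at 23600 and 20800 CPM in WT. Other fibre genes split the vdr-/- libraries, as given below beside Cry1 and Cry2. Fat-cell markers moved with genotype. Of 8, 7 were called higher, none of the 8 was at 0, and their summed level was 3640 to 4140 CPM in vdr-/- and 967 to 1160 CPM in WT. Red blood cell markers had 2 of 5 called higher, none at 0 and sums of 389 to 549 CPM in vdr-/- and 242 to 265 CPM in WT. That count was 1 without vdr-/- replicate 1 and on autosomes alone, and 3 without WT replicate 2 or without vdr-/- replicate 2. The heme synthesis gene Alas2 lost its call without vdr-/- replicate 1 (0.91, edgeR adjusted p = 0.169) and without WT replicate 2 (1.00, edgeR adjusted p = 0.0775). No marker of macrophages (6), tendon (5), endothelial cells (5), fibroblasts (5) or muscle fibres (9) was called with all 4 libraries. The part of these markers in the clock results was not tested, and in whole muscle fewer cells of a type and less RNA per cell cannot be told apart.

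Promoter sequences of Nr1d1, Nr1d2, Per3, Cry1 and Arntl are shown because the clock acts on its own genes through short motifs. RefSeq windows on GRCm38.p6, running from 250 bases before to 50 bases after a start, were found for 9 of the 10 genes, 13 windows in all, and Per2 had no entry. Both strands were searched for the E-box CACGTG (in 7.15% of all 32851 such windows), its variant CACGTT (4.68%), the D-box TTATGTAA or TTACGTAA bound by DBP, TEF and HLF (1.06%), the ROR element TAGGTCA or TGGGTCA (6.45%) and the cyclic AMP element TGACGTCA (1.79%). In the sequences, which run 5′ to 3′ on the minus strand for Nr1d1, Nr1d2, Per3 and Cry1 and on the plus strand for Arntl, capitals mark the matches, with CACGTT written as AACGTG where it lies on the other strand. The 250 bases before the start are printed, except for Arntl, where 30 bases around the match are.
Nr1d1 (chr11:98775378-98775627) has a variant E-box that begins 28 bases before the start.
Nr1d1: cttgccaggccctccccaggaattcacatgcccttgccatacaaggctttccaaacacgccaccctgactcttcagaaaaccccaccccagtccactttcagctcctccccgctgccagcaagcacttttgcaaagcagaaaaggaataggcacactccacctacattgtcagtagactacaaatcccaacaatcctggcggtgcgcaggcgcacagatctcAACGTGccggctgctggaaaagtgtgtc
Nr1d2 (chr14:18239107-18239356) has none of these letters in its window.
Nr1d2: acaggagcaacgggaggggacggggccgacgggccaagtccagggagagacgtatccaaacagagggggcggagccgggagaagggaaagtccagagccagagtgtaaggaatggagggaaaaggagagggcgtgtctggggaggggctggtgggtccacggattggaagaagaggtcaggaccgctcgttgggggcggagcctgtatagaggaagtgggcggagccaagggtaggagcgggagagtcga
Per3 (chr4:151044666-151044915) has a pair of D-boxes, beginning 205 and 158 bases before the start.
Per3: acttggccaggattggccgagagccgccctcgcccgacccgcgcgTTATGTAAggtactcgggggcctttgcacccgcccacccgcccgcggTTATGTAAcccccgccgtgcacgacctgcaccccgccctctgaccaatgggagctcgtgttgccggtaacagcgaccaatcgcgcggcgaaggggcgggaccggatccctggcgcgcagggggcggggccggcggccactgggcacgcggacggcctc
Cry1 (chr10:85185055-85185304) has an E-box that begins 60 bases and a variant E-box that begins 79 bases before the start.
Cry1: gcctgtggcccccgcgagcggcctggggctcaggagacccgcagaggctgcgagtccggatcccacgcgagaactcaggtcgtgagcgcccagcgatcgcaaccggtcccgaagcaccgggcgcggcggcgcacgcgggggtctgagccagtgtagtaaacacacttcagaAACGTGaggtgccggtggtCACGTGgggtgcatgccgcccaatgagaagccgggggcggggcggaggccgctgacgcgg
Arntl (chr7:113207526-113207555) has a ROR element beginning at base 31, counting from the transcription start of its second window.
Arntl: agggaaggcagaaagTAGGTCAgggacgga
Among the rest, Per1 had an E-box and Cry2 a variant E-box, each beginning 166 bases before a start, and Clock and Npas2 had no match. The RefSeq starts of Nr1d1 and Cry2 were not found in a GENCODE transcript of the gene, so the distances given for these genes rest on RefSeq alone. A match is a string of letters, not a shown binding site.

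Of the 10 clock genes, Nr1d2 was called lower in vdr-/- and none was called higher, beside 2.03% of all tested genes called in either direction. The groups did not overlap for 5 of the 10 (Arntl, Clock, Per2, Per3 and Nr1d2), beside 44.7% of all tested genes. Of these 5, the activators Arntl and Clock were higher in both vdr-/- libraries, where 23.0% of all tested genes were so placed, and Per2, Per3 and Nr1d2 were lower in both, where 21.7% were so placed. An unadjusted p below 0.05 was also met by 5 of the 10, beside 14.0% of all tested genes. The median log2 fold change of the 10 genes was -0.14, beside -0.001 over all tested genes. The 10 genes were chosen with earlier results of these data known, so these counts are a description only.

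**Figure D1:**
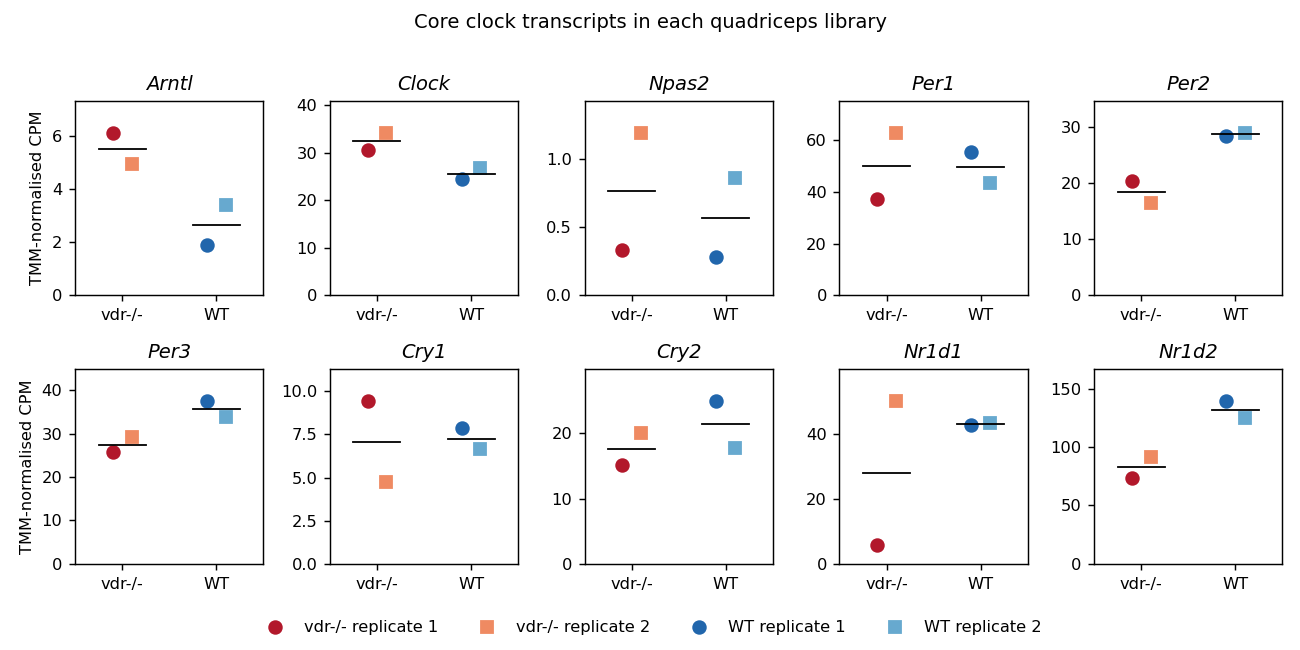
CPM of the 10 core clock genes (y axis, linear from 0, own scale per gene) in the 2 vdr-/- and 2 WT libraries, with points for libraries and horizontal lines for group means. Nr1d2 sits at 73.7 and 91.4 CPM in vdr-/- against 139 and 125 CPM in WT, while Nr1d1 splits the vdr-/- libraries.

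Nr1d2, the more abundant REV-ERB receptor gene in this muscle (ENSMUSG00000021775, chromosome 14, 18204054 to 18239127), had 73.7 and 91.4 CPM in vdr-/- and 139 and 125 CPM in WT. Both vdr-/- libraries were lower than both WT libraries. Its log2 fold change was -0.68 ± 0.14 (95% interval -0.99 to -0.37; edgeR adjusted p = 0.0361). The call rested on 2 libraries: without vdr-/- replicate 1 the change was -0.53 (edgeR adjusted p = 0.196), and without WT replicate 1 it was -0.60 (edgeR adjusted p = 0.101).

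Nr1d1, the paralogue that encodes REV-ERB alpha (ENSMUSG00000020889, chromosome 11, 98767932 to 98775333), had 5.85 CPM in vdr-/- replicate 1 and 49.9 CPM in vdr-/- replicate 2, against 42.6 and 43.2 CPM in WT. Thus 1 vdr-/- library lay far under the WT level and the other lay above it. The vdr-/- libraries held 123 and 585 reads, a ratio of 8.53 in CPM of replicate 2 over replicate 1 (exact 95% interval 7.01 to 10.4, counting error only), while the WT libraries stood at a ratio of 1.01 (0.894 to 1.15). Ranked by the gap between the vdr-/- libraries, Nr1d1 was number 3 of 11102 genes with a mean of at least 2 CPM, and by the gap between the WT libraries number 10383. The log2 fold change between genotypes was accordingly loose, at -0.66 ± 1.34 (95% interval -5.92 to 4.60; edgeR adjusted p = 0.902). It was -2.87 without vdr-/- replicate 2 (edgeR adjusted p = 0.000172) and 0.21 without vdr-/- replicate 1 (edgeR adjusted p = 0.647), so the library left out decided both the call and the direction. Thra, a thyroid hormone receptor gene on the opposite strand, shares 8.55% of the exon bases of Nr1d1, and its 28.4 and 50.4 CPM in vdr-/- and 33.9 and 32.3 CPM in WT did not pass the test (edgeR adjusted p = 0.774).

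The Per genes encode the repressor that accumulates with CRY proteins. Per2 (ENSMUSG00000055866, chromosome 1, 91415982 to 91459324) had 20.4 and 16.4 CPM in vdr-/- and 28.4 and 28.9 CPM in WT. Both vdr-/- libraries were lower, and the WT libraries nearly coincided. The log2 fold change of -0.64 ± 0.15 (95% interval -0.96 to -0.31) missed the threshold (edgeR adjusted p = 0.0609). It passed without vdr-/- replicate 1 (-0.81, edgeR adjusted p = 0.044) and under the older quasi-likelihood estimates of edgeR, a setting chosen with the data in view (-0.63, edgeR adjusted p = 0.0475), as well as with no filter on low counts (-0.62, edgeR adjusted p = 0.0253).

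Per3, which is largely dispensable for rhythms in mice (chromosome 4, 151003652 to 151044665), had 25.7 and 29.2 CPM in vdr-/- and 37.4 and 33.8 CPM in WT. The groups did not overlap, but the log2 fold change of -0.38 ± 0.13 did not pass (edgeR adjusted p = 0.228). Per1, which responds to light and to glucocorticoids as well as to the clock (chromosome 11, 69095217 to 69109960), had 37.0 and 62.6 CPM in vdr-/- and 55.3 and 43.4 CPM in WT. The vdr-/- libraries lay on both sides of the WT pair, and the log2 fold change was 0.01 ± 0.27 (95% interval -0.66 to 0.68; edgeR adjusted p = 0.993). In Per1, as in Nr1d1, vdr-/- replicate 1 was the lowest of the 4 libraries and vdr-/- replicate 2 the highest, with a ratio of 1.69 between them (1.53 to 1.87).

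The Cry genes encode the repressors that hold ARNTL and CLOCK inactive. Cry1 (chromosome 10, 85131700 to 85185064) had 9.41 and 4.77 CPM in vdr-/- and 7.87 and 6.63 CPM in WT. Here vdr-/- replicate 1 was the highest library and vdr-/- replicate 2 the lowest, the reverse of Nr1d1 and Per1, with a ratio of 0.507 for replicate 2 over replicate 1 (0.37 to 0.686). The log2 fold change of Cry1 was 0.01 ± 0.29 (95% interval -0.65 to 0.68; edgeR adjusted p = 0.989). Cry2 (chromosome 2, 92403646 to 92434043) had 15.1 and 20.0 CPM in vdr-/- and 24.9 and 17.8 CPM in WT. The groups overlapped, and the log2 fold change was -0.29 ± 0.20 (95% interval -0.72 to 0.15; edgeR adjusted p = 0.575).

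Some tissue markers, named after their values were seen, also differed between the vdr-/- libraries. Myh2, the myosin of fast oxidative fibres, had 370 and 171 CPM in vdr-/- and 258 and 292 CPM in WT. Myoglobin (Mb) had 646 and 410 CPM in vdr-/- and 580 and 516 CPM in WT, and the fast myosin gene Myh1 had 1830 and 1260 CPM in vdr-/- and 1860 and 1700 CPM in WT. Tnmd, a tendon gene, had 37.7 and 19.2 CPM in vdr-/- and 41.3 and 45.3 CPM in WT. In these 4 genes vdr-/- replicate 2 was the lowest library, as in Cry1, whereas it was the highest in Nr1d1 and Per1. The fibre genes Des and Tnnt3 and the tendon genes Fmod, Thbs4 and Mkx also had vdr-/- replicate 2 lowest. In the fibre genes Acta1 and Ttn and the tendon gene Scx, vdr-/- replicate 1 was lowest. The remaining fibre genes, Ckm and Myh4, had WT replicate 2 lowest. Ttn, a fibre gene, had 16100 and 17300 CPM in vdr-/- and 23800 and 23200 CPM in WT. Scx, a tendon gene, had 1.95 and 2.73 CPM in vdr-/- and 4.36 and 4.37 CPM in WT. The part of these markers in the clock gene values was not tested.

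Arntl, the gene of the activator BMAL1 and the non-redundant member of the loop (ENSMUSG00000055116, chromosome 7, 113207465 to 113314126), had 6.13 and 4.95 CPM in vdr-/- and 1.90 and 3.43 CPM in WT. Both vdr-/- libraries were higher than both WT libraries, and the WT libraries differed from each other by a ratio of 1.81 (1.05 to 3.24) on 20 and 44 reads. The log2 fold change of 1.05 ± 0.30 (95% interval 0.39 to 1.70) was the largest of the 10 genes in size and missed the threshold (edgeR adjusted p = 0.126). It passed without WT replicate 2 (1.56, edgeR adjusted p = 0.0276) and with no filter on low counts (1.06, edgeR adjusted p = 0.032), and was 0.71 without WT replicate 1.

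Clock, the partner of ARNTL (chromosome 5, 76209868 to 76304792), had 30.6 and 34.1 CPM in vdr-/- and 24.5 and 26.7 CPM in WT. The groups did not overlap, by a small margin, and the log2 fold change was 0.33 ± 0.13 (edgeR adjusted p = 0.285). Npas2, the CLOCK paralogue (chromosome 1, 39193731 to 39363236), had only 7 and 14 reads in vdr-/- and 3 and 11 reads in WT. That is 0.33 and 1.19 CPM in vdr-/- and 0.284 and 0.858 CPM in WT. A difference in Npas2 was not detectable at this depth (log2 fold change 0.15 ± 0.76, 95% interval -1.55 to 1.84; edgeR adjusted p = 0.962).

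**Figure D2:**
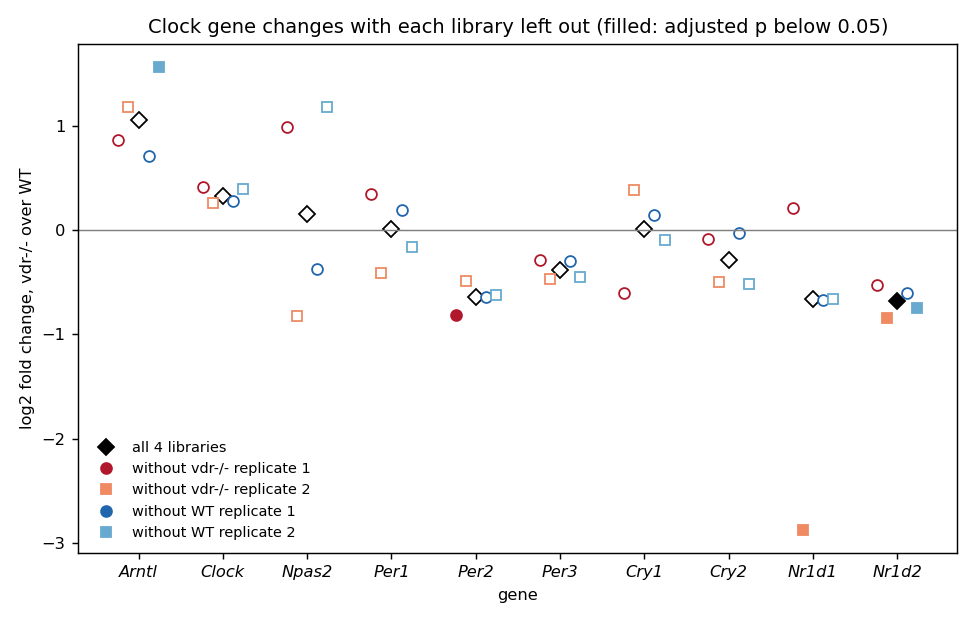
Log2 fold change of each clock gene (y axis, vdr-/- over WT) from all 4 libraries and with each library left out in turn, filled where the adjusted p was below 0.05. Nr1d1 runs from -2.87 to 0.21 as the left-out library changes, while Nr1d2 stays between -0.84 and -0.53.

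Per kilobase of annotated exon and averaged over the 4 libraries, levels ran from 19.8 for Nr1d2, 11.5 for Nr1d1 and 8.81 for Per1, through 4.02 for Per2, 3.28 for Per3, 3.08 for Cry2, 2.15 for Cry1 and 2.11 for Clock, to 0.545 for Arntl and 0.139 for Npas2, all as CPM per kilobase. In this order the ranges over the libraries overlapped between all neighbours except Per1 and Per2, Clock and Arntl, and Arntl and Npas2. On this scale the REV-ERB receptor gene Nr1d2 stood at 13.6 and 16.9 in vdr-/- and 25.6 and 23.2 in WT, and the activator gene Arntl at 0.815 and 0.657 in vdr-/- and 0.252 and 0.456 in WT.

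The activators, and Cry1 with its late peak, are known to crest at other hours than the remaining clock genes. Their ratio within each library was therefore taken as a description. Depth still enters it through the prior count, for genes with few reads. The mean log2 CPM of Nr1d1, Nr1d2, Per1, Per2, Per3 and Cry2 minus that of Arntl, Clock, Npas2 and Cry1 was 2.05 in vdr-/- replicate 1 and 2.69 in vdr-/- replicate 2, against 3.65 in WT replicate 1 and 2.99 in WT replicate 2. Both vdr-/- libraries were lower than both WT libraries. The ratio holds Arntl, Clock, Per2, Per3 and Nr1d2, whose groups did not overlap and each of which lowers it in vdr-/-. It is therefore not separate from the values of these genes. With a prior count of 0.5 in place of 2 the ratio was 2.15 and 2.73 in vdr-/- and 3.78 and 3.05 in WT. With 2 libraries against 2 an exact two-sided permutation test cannot go below p = 0.33, so none was run. Leaving out Nr1d1, a choice made with the data in view, gave 2.44 and 2.61 in vdr-/- and 3.67 and 2.97 in WT, and leaving out Npas2, likewise added, gave 0.88 and 1.98 in vdr-/- and 2.62 and 2.21 in WT.

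Single pairs of genes showed how far apart the libraries of a group were. The log2 ratio of Nr1d1 over Arntl was -0.07 in vdr-/- replicate 1 and 3.30 in vdr-/- replicate 2, against 4.39 and 3.60 in WT. By this pair vdr-/- replicate 2 lay nearer to the WT libraries than to vdr-/- replicate 1. The log2 ratio of Per2 over Arntl instead put the vdr-/- libraries together, at 1.71 and 1.70, against 3.81 and 3.02 in WT. Dbp over Arntl stood at 1.65 and 3.57 in vdr-/- and at 5.13 and 4.28 in WT, also without overlap. Arntl alone did not overlap between the groups, so the ratios over it are not separate from its own values. Over the weakly expressed Npas2 the groups overlapped, with Per3 at 5.76 and 4.45 in vdr-/- and 6.46 and 5.08 in WT, and Nr1d2 at 7.28 and 6.10 in vdr-/- and 8.35 and 6.97 in WT.

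**Figure D3:**
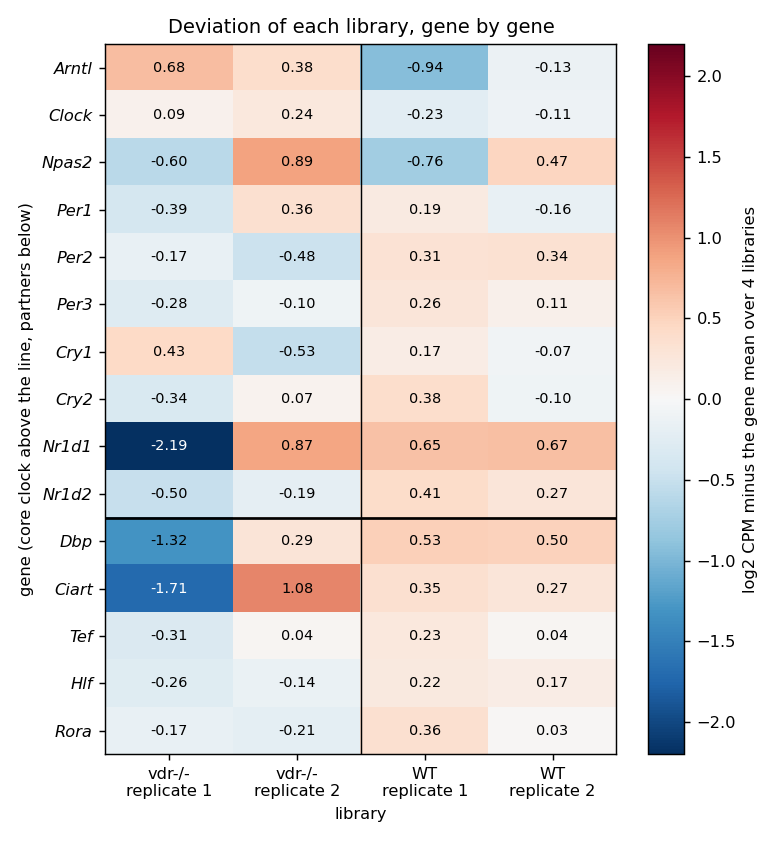
Log2 CPM of each gene minus its mean over the 4 libraries (colour and printed value), for the 10 core clock genes above the line and 5 partner genes below it, with the vdr-/- libraries on the left. Nr1d1, Ciart and Dbp share a deep low in vdr-/- replicate 1, at -2.19, -1.71 and -1.32.

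Of all other genes with a mean of at least 2 CPM, those whose profile over the 4 libraries lay nearest to that of Nr1d1 were Ciart (root mean square distance 0.359 on the log2 scale), the cytochrome P450 gene Cyp4f39 (0.458) and Dbp (0.531), where the spread of Nr1d1 itself was 1.27. Ciart, a repressor of CLOCK and ARNTL that is itself switched on through E-boxes, had 1.14 and 8.70 CPM in vdr-/- and 5.21 and 4.92 CPM in WT. Dbp, a clock output factor that binds D-boxes, had 19.5 and 60.1 CPM in vdr-/- and 71.0 and 69.1 CPM in WT. In both genes vdr-/- replicate 1 was by far the lowest library, and their gaps between the vdr-/- libraries ranked number 6 and number 34 of 11102 genes. Nearest to Arntl were Hba-a2, an alpha globin gene (0.0317), Epsti1, an interferon-inducible gene (0.0369), and Rac2, a GTPase gene of blood cells (0.0821), where the spread of Arntl was 0.614. Hba-a2 had 26.3 and 20.0 CPM in vdr-/- and 8.15 and 14.3 CPM in WT, and its list of red blood cell markers moved with genotype as given above. These likenesses rest on 4 libraries and are a description.

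Of the clock output and E-box repressor factors (Dbp, Tef, Hlf, Nfil3, Bhlhe40, Bhlhe41 and Ciart), 0 of 7 were called by edgeR, 1 of 7 had an unadjusted p below 0.05, beside 14.0% of all tested genes, and the median log2 fold change was -0.18. Without vdr-/- replicate 2, 3 of the 7 were called. Hlf, a D-box factor, had 12.5 and 13.6 CPM in vdr-/- and 17.4 and 16.8 CPM in WT (log2 fold change -0.40 ± 0.15; edgeR adjusted p = 0.247). Tef, its relative, had 117 and 149 CPM in vdr-/- and 171 and 150 CPM in WT (-0.27 ± 0.15; edgeR adjusted p = 0.471). Bhlhe40, an E-box repressor, had 44.2 and 56.2 CPM in vdr-/- and 44.3 and 44.9 CPM in WT (0.17 ± 0.14; edgeR adjusted p = 0.676).

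The ROR activators compete with the NR1D receptors for the same elements. Rora, an activator of Arntl, had 76.5 and 74.4 CPM in vdr-/- and 111 and 87.9 CPM in WT (log2 fold change -0.39 ± 0.14; edgeR adjusted p = 0.221). Rorb, its relative, had 0.903 and 0.682 CPM in vdr-/- and 1.99 and 1.72 CPM in WT (-1.16 ± 0.40; edgeR adjusted p = 0.214). In both genes the vdr-/- libraries were lower than the WT libraries, without passing the test. Of all tested genes, 21.7% had both vdr-/- libraries lower than both WT libraries. Rorb rested on 19 and 8 reads in vdr-/- and 21 and 22 reads in WT. Arntl2, tested in the same list, had 1.28 and 1.53 CPM in vdr-/- and 0.853 and 1.64 CPM in WT (0.12 ± 0.43; edgeR adjusted p = 0.945).

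**Figure D4:**
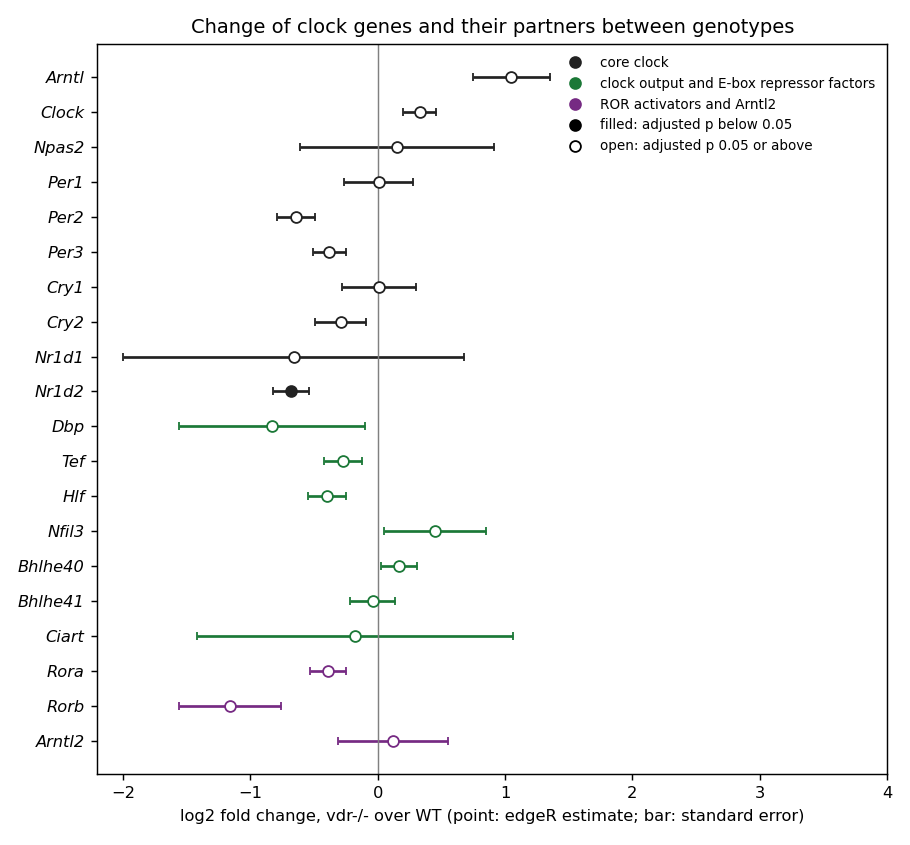
Log2 fold change of the core clock genes, the output factors, Rora, Rorb and Arntl2 (x axis, vdr-/- over WT, points with standard errors, filled where the adjusted p was below 0.05). Nr1d2 at -0.68 is the filled point.

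No gene of the enzymes and cofactors that act on clock proteins passed the test. Of 15 kinases, ubiquitin ligases and deubiquitinases, 14 were tested and 0 were called by edgeR. An unadjusted p below 0.05 was met by 2 of them, beside 14.0% of all tested genes, and the median log2 fold change was -0.07. Gsk3b, a kinase of clock proteins, had 35.3 and 35.1 CPM in vdr-/- and 48.9 and 41.5 CPM in WT (-0.36 ± 0.13; edgeR adjusted p = 0.24). Usp2, a deubiquitinase that is itself rhythmic, had 87.7 and 91.2 CPM in vdr-/- and 119 and 104 CPM in WT (-0.32 ± 0.13; edgeR adjusted p = 0.274). The ubiquitin ligase gene Fbxw11 stood at -0.19 ± 0.13 (edgeR adjusted p = 0.581). Of 11 cofactors 0 were called, 0 had an unadjusted p below 0.05 and the median was 0.10. Those with the smallest p were Tipin (0.49 ± 0.23; edgeR adjusted p = 0.382), Sfpq (-0.17 ± 0.13; edgeR adjusted p = 0.624) and Wdr5 (0.17 ± 0.15; edgeR adjusted p = 0.706).

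Of 15 genes reported as clock-controlled in muscle or other tissues, 3 were called higher, beside 1.61% of all tested genes, and none lower. An unadjusted p below 0.05 was met by 6 of the 15, beside 14.0% of all tested genes. The median log2 fold change was -0.02. The list was written with earlier results of these data known, so its counts beside these shares are a description only. Por, the electron donor of microsomal cytochromes P450, rose, with 49.0 and 53.1 CPM in vdr-/- and 26.7 and 29.7 CPM in WT (0.86 ± 0.13; edgeR adjusted p = 0.00774). Cdkn1a, the cell cycle inhibitor p21, rose, with 11.7 and 10.7 CPM in vdr-/- and 5.69 and 5.70 CPM in WT (0.98 ± 0.18; edgeR adjusted p = 0.0222). Pdk4, the kinase that shuts pyruvate dehydrogenase, rose, with 133 and 141 CPM in vdr-/- and 94.7 and 84.7 CPM in WT (0.61 ± 0.12; edgeR adjusted p = 0.0345). The call of Cdkn1a was lost with DESeq2 (0.97, adjusted p = 0.07) and without vdr-/- replicate 1 (0.90), WT replicate 1 (0.98) or WT replicate 2 (0.98), and that of Pdk4 without vdr-/- replicate 1 (0.65), vdr-/- replicate 2 (0.57) or WT replicate 2 (0.53). Por was called without each library in turn, and without vdr-/- replicate 1 it was the 1 call left in the list.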

How the data were processed

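Total RNA of 4 quadriceps libraries was sequenced with a TruSeq kit, per the labels' protocols. The deposited files hold raw counts of reads per Ensembl gene, and the submitters' processing notes name Trimmomatic, STAR and DESeq2 with GRCm38 (mm10). Their versions and settings, like the annotation used, were not given. Of 55573 IDs, 55480 matched GENCODE M21. A count was found for 124 of 470 genes covered by exons on the other strand and for 1 of 740 covered on their own strand, so counting used strand. Counts were filtered (filterByExpr in edgeR 4.0.16, R 4.3.3, minimum count 10, minimum total 15), TMM-scaled and tested with the robust quasi-likelihood test on genotype in edgeR, and the code was tested on simulated data. SE came from the F statistic. Log2 CPM used a prior count of 2. The libraries of a group differed beyond counting noise (chi-square per degree of freedom 12.5 in vdr-/- and 8.04 in WT). Named genes were the 10 members, called members and the 3 of smallest p of each pathway list, and the 3 nearest profiles to Arntl and Nr1d1. For 1 gene of the pathway lists the result is not reported here. Cell type marker lists are given as counts and sums, and the single markers named were chosen after their values were seen. Members, lists and tests were chosen with earlier results of these data known. DESeq2 1.42.0, other scalings and filters, left-out libraries, a replicate block and autosomes alone were alternatives.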

Additional observations from a re-analysis of the deposited data

How the results depend on the processing

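Over 12 alternatives Nr1d2 kept its direction (-0.84 to -0.53) and was called in 10, Per2 was called in 3 (-0.81 to -0.49), Arntl in 2 (0.71 to 1.56), Nr1d1 in 1, and Clock, Npas2 (11 alternatives), Per1, Per3, Cry1 and Cry2 in none. With no filter on low counts 476 genes were called (355 higher, 121 lower), 3 of them clock genes, and with the older quasi-likelihood estimates 2 clock genes were called. Leaving out 1 library gave 216 to 332 called genes, 177 to 262 higher and 39 to 90 lower (90 without WT replicate 1), and 0 to 2 clock genes. Directions reversed for Npas2 without WT replicate 1 (-0.37) or vdr-/- replicate 2 (-0.82), with 1.18 without WT replicate 2, for Per1 without WT replicate 2 (-0.16) or vdr-/- replicate 2 (-0.41) and with the replicate block (-0.03), with 0.34 without vdr-/- replicate 1, for Cry1 with DESeq2 (-0.01), without WT replicate 2 (-0.10) or vdr-/- replicate 1 (-0.60) and with the block (-0.07), with 0.38 without vdr-/- replicate 2, and for Nr1d1 without vdr-/- replicate 1 (0.21), with -2.87 without vdr-/- replicate 2. None of these reversed values passed the test. Leaving Npas2 out of the clock ratio lowered it to 0.88 and 1.98 in vdr-/- and 2.62 and 2.21 in WT, since Npas2 is the lowest gene in it. The cause of the other shifts was not tested. Same-numbered libraries deviated together with a correlation of only 0.039 over all tested genes. That value cannot tell whether they were collected or prepared together. The replicate block called 346 genes, 1 of them a clock gene. Counts of 3 to 14 reads limit Npas2, and 20 reads in WT replicate 1 limit Arntl.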

Other observations

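Body temperature is known to feed time of day into tissue clocks, and a list of temperature-responsive genes was read for that reason. Whether the listed genes act on the clock was not tested. Of 9 measured, 3 heat shock genes were called lower in vdr-/-, beside 0.413% of all tested genes. Among the 9, 1 cold-inducible gene was called higher, beside 1.61% of all tested genes. Earlier results of these data were known when this list was written, so its counts beside these shares are a description only. With DESeq2 and with the replicate block 7 of the 9 were called. Hsp90aa1, a chaperone gene, had 45.2 and 35.0 CPM in vdr-/- and 170 and 118 CPM in WT (log2 fold change -1.84 ± 0.20; edgeR adjusted p = 0.00188). Hsph1 (-1.70 ± 0.18; edgeR adjusted p = 0.00129) and Hspb1 (-1.31 ± 0.14; edgeR adjusted p = 0.00134) fell as well. The lowest fold changes of the list, named after their values were seen, did not pass. Hspa1b, an inducible chaperone gene with a near-identical copy in Hspa1a, had 7.18 and 2.39 CPM in vdr-/- and 114 and 51.0 CPM in WT (-4.02 ± 0.89; edgeR adjusted p = 0.298). Hspa1a had 8.41 and 2.39 CPM in vdr-/- and 80.1 and 33.9 CPM in WT (-3.31 ± 0.97; edgeR adjusted p = 0.399), and reads shared by these copies may be split between them. Rbm3, a cold-inducible RNA-binding protein gene on chromosome X, rose, with 68.0 and 61.7 CPM in vdr-/- and 36.6 and 39.7 CPM in WT (0.77 ± 0.13; edgeR adjusted p = 0.0121), a call lost without vdr-/- replicate 1 (0.69, edgeR adjusted p = 0.0559). Its relative Cirbp, named after its values were seen, did not pass, at 11.6 and 14.9 CPM in vdr-/- and 14.1 and 9.05 CPM in WT (0.19 ± 0.22; edgeR adjusted p = 0.783).

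Glucocorticoids are another daily signal to muscle. Of 7 of their target genes 0 were called by edgeR, and the list count was 0 to 2 over the alternatives. An unadjusted p below 0.05 was met by 2 of the 7, beside 14.0% of all tested genes. Fkbp5, a cochaperone gene induced through the glucocorticoid receptor, had 46.4 and 39.7 CPM in vdr-/- and 28.0 and 17.7 CPM in WT (0.92 ± 0.20; edgeR adjusted p = 0.0599). Zbtb16 stood at 0.29 ± 0.12 (edgeR adjusted p = 0.33) and Cebpd at 0.50 ± 0.24 (edgeR adjusted p = 0.429).

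The library with low Nr1d1, vdr-/- replicate 1, also had the highest values of Fos, Fosb, Junb and the neutrophil markers. Egr1, Ier2 and Atf3 of the immediate-early list were likewise highest in that library. Nr4a1 of the same list, named after its values were seen, was highest in WT replicate 1. It had 114 and 98.5 CPM in vdr-/- and 127 and 76.2 CPM in WT. Fos, an immediate-early gene, had 59.9 and 14.5 CPM in vdr-/- and 7.87 and 6.16 CPM in WT (2.43 ± 1.03; edgeR adjusted p = 0.51), and Fosb had 10.3 and 1.53 CPM in vdr-/- and 0.663 and 0.858 CPM in WT (3.03 ± 1.42; edgeR adjusted p = 0.527). Junb had 13.9 and 7.33 CPM in vdr-/- and 6.92 and 8.19 CPM in WT (0.51 ± 0.29; edgeR adjusted p = 0.491). The summed level of the 4 neutrophil markers was 25.8 and 2.30 CPM in vdr-/- and 0.379 and 0.624 CPM in WT, with Ngp and Camp at 0 in both WT libraries. Of 7 immediate-early genes 0 were called by edgeR and 0 had an unadjusted p below 0.05, while 4 were called without vdr-/- replicate 2, and 1 without vdr-/- replicate 1 or with the replicate block. With all libraries only 2 of the 4 neutrophil markers, S100a8 and S100a9, passed the filter on low counts, and 0 were called. With the replicate block 2 were called. Their reads came mostly from vdr-/- replicate 1. The part of these genes in the low Nr1d1 value was not tested.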
